A study of Mus musculus with 4 samples.

Results

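The (pro)renin receptor (PRR), encoded by Atp6ap2, and the membrane-embedded V0 sector of the vacuolar proton pump were examined in mouse collecting duct and ureteric bud cells with and without a floxed receptor gene. The members were taken by name: Atp6ap2, its partner accessory gene Atp6ap1, and the V0 genes Atp6v0a1, Atp6v0a2, Atp6v0a4, Atp6v0b, Atp6v0c, Atp6v0d1, Atp6v0d2 and Atp6v0e (also called Atp6v0e1). These 10 genes had 13 of the 41174 non-control probes on the array, and all 10 were among the 16036 genes that entered the main comparison. The knockout samples (PRR KO) came from HoxB7CreEGFP+ mice with PRR flox/flox alleles, and the wild-type samples (WT) from CreEGFP+ PRR+/+ mice, so both genotypes carried the Cre and EGFP transgene. The HoxB7 promoter, active in the ureteric bud and the ducts that grow from it, drives both Cre and the green fluorescent protein in this line, so the deletion is limited to that lineage. Cells that fluoresced green were sorted at postnatal day 1 and their RNA was pooled over animals, of which no number is given.

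The vacuolar proton pump (V-ATPase) uses ATP to move protons across membranes. Its soluble V1 sector splits ATP and turns a central stalk, and the stalk turns a ring of V0 subunits in the membrane past subunit a, where the protons cross. The pump acidifies lysosomes, endosomes and secretory vesicles in every cell, and in intercalated cells of the collecting duct it also sits in the plasma membrane and secretes acid into urine. The receptor binds renin and prorenin, and its membrane-spanning fragment is built into the V0 sector.

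There were 4 two-colour arrays, all from 1 slide and 1 scan. PRR KO replicates 1 and 2 carried knockout RNA in the red dye Cy5, with WT pool 1 or pool 2 as the green Cy3 channel. WT replicate 1 carried pool 1 in both dyes and WT replicate 2 carried pool 2 in both dyes. The labels conflict: the titles call the first pair of arrays wild type and the second pair knockout, and the pool numbers in the descriptions of the second pair are swapped. Groups here follow the source name given for each channel, and every direction below rests on it. The Cy3 channel of PRR KO replicate 1 held almost no signal, with 32 probes well above background against 14949 to 18593 in the other Cy3 channels. The main comparison therefore set Cy5 against Cy5 (PRR KO minus WT, 2 arrays each), on the log2 scale after quantile normalization. In Cy5, 22734 and 20814 probes were well above background on the PRR KO arrays, against 20038 and 18433 on the WT arrays. Over all probes, Cy3 of PRR KO replicate 2 correlated at 0.994 with Cy3 of WT replicate 2 and at 0.961 with that of WT replicate 1, a description of 1 pool labelled separately on different arrays.

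Promoter sequence is shown for the receptor gene, the member below both WT pools on both PRR KO arrays, and for Atp6v0a4 and Atp6v0b, the members that differed most between the WT pools in both dyes. Each window is the 250 bases before the start site in RefSeq (GRCm38.p6), written on the gene's own strand. Atp6ap2 lies at chrX:12587509-12587758 on the plus strand, Atp6v0a4 at chr6:38124587-38124836 on the minus strand and Atp6v0b at chr4:117887330-117887579 on the minus strand. Capitals mark matches to the motif CCAAT, to the motif GGGCGG and to the motif CACGTG. Both strands were searched, so ATTGG is the first of these read from the other strand, CCGCCC is the second and the third reads the same on both.
Atp6ap2: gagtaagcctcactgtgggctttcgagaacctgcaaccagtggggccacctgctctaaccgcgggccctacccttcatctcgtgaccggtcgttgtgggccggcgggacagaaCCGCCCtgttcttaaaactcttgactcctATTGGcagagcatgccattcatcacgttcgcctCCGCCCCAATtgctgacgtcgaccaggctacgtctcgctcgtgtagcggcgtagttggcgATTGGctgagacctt
Atp6v0a4: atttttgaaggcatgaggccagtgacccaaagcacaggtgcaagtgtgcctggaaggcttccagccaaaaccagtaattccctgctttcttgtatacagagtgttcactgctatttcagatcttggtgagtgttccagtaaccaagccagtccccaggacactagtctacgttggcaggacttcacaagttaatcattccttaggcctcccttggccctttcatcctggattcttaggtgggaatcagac
Atp6v0b: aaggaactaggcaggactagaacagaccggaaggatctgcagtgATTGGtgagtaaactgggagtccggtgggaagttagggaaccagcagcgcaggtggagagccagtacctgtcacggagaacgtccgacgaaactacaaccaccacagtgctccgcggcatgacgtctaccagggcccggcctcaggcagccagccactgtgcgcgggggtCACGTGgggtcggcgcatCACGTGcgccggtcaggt
The Atp6ap2 window held 3 CCAAT and 2 GGGCGG matches, of which 1 pair overlapped, the Atp6v0b window 2 CACGTG and 1 CCAAT, and the Atp6v0a4 window none of the 3 motifs. The G and C content was 59.2% for Atp6ap2, 48.4% for Atp6v0a4 and 62.0% for Atp6v0b, against a median of 52.4% over 32851 promoters. A window was found for 8 of the 10 genes, and of these CACGTG occurred in 1 (Atp6v0b), CCAAT in 3 and GGGCGG in 4. Of all promoters of this length, 6.02% held the CACGTG motif, 33.85% held CCAAT and 32.74% held GGGCGG. A match describes letters and is no measure of binding.

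The receptor transcript was lower in the knockout channel. Its normalized log2 Cy5 level was 8.08 and 7.72 on the PRR KO arrays, against 8.37 and 8.51 on the WT arrays. Both PRR KO arrays lay below both WT arrays, and the groups did not overlap. The means were 7.90 ± 0.26 in PRR KO and 8.44 ± 0.10 in WT (SD, n = 2 each). The difference was −0.54 ± 0.17 (log2, SE), with a 95% interval of −0.98 to −0.11, which is 0.686 of the WT level. In limma's moderated test across all genes the unadjusted p was 0.0238 and the Benjamini-Hochberg adjusted p was 0.802, so the difference did not pass the threshold of 0.05. No gene did: 0 of 16036 passed in either direction (0%), and 670 (4.18%) had an unadjusted p below 0.05.

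Signal for Atp6ap2 remained in the knockout channel. The unnormalized median spot intensity in Cy5 was 365 and 169 on the PRR KO arrays, against 287 and 296 on the WT arrays, with local background between 50 and 54 on all 4. PRR KO replicate 1 was the brightest array as a whole in Cy5, and its normalized Atp6ap2 level was below both WT levels although its raw intensity was above them. The array has 1 probe for the gene, well above background in Cy5 on all 4 arrays. Where that probe lies relative to the floxed part is not known here. If it lies outside the deleted part, it does not check the deletion. In sorted bulk RNA, fewer cells that express a gene and less transcript per cell cannot be told apart, which holds for every gene here.

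The receptor was lower against each WT pool. The PRR KO mean was 0.720 of the pool 1 level and 0.655 of the pool 2 level in Cy5, and the pools themselves differed by 0.14 (log2, pool 2 minus pool 1). PRR KO replicate 2 carried knockout and pool 2 together, and there the loess-normalized log2 ratio of Cy5 to Cy3 was −0.63, against 0.25 on the array that carried pool 2 in both dyes. The difference between these ratios, which takes out a dye effect common to both arrays, was −0.88, a ratio of 0.543. It rests on 1 array on each side and has no replicate check.

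**Figure D1:**
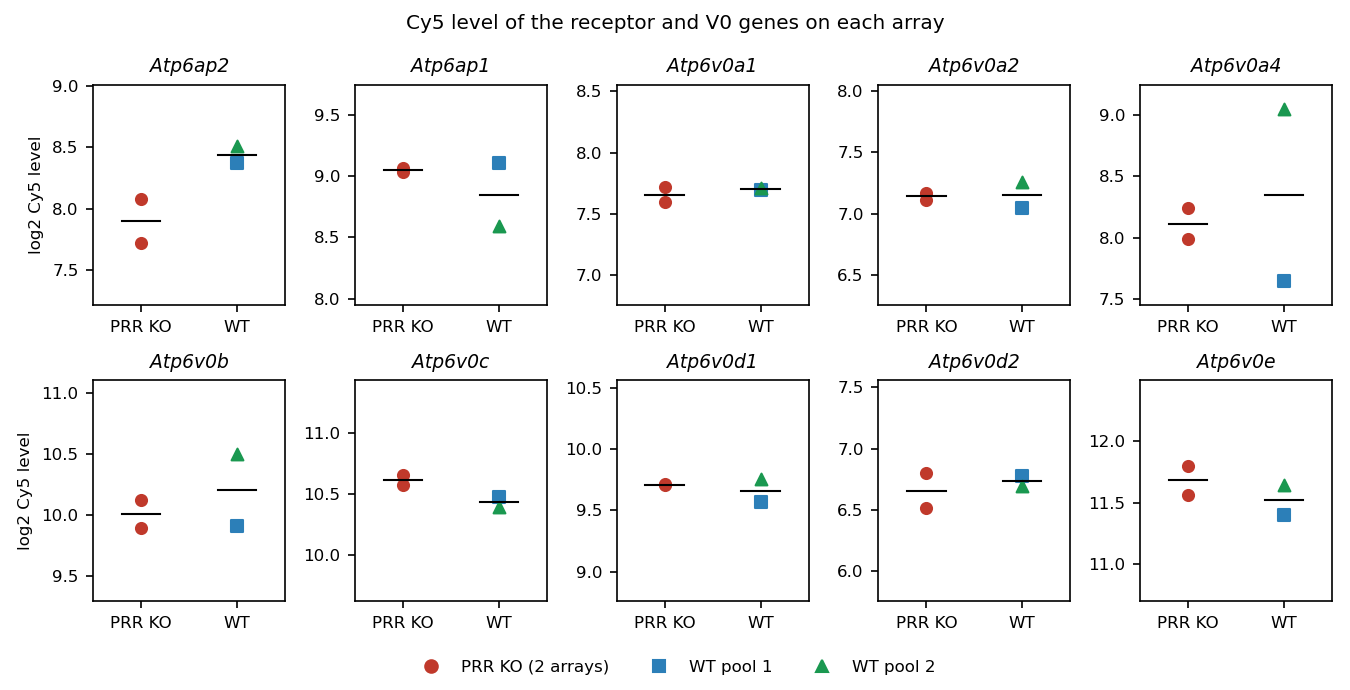
Log2 Cy5 level (y axis, after quantile normalization) of the probe used for each of the 10 genes, in PRR KO (circles, 2 arrays) and WT (square, pool 1; triangle, pool 2), with bars at the group means. Every panel spans the same log2 range, centred on its own gene. Atp6ap2 is the member with both PRR KO arrays below both WT pools, and for Atp6v0a4 the WT pools are farthest apart, at 9.05 in pool 2 and 7.65 in pool 1.

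Atp6ap1 encodes the other accessory subunit (Ac45), which takes part in the assembly of V0. Its log2 Cy5 level was 9.04 and 9.07 in PRR KO, against 9.10 and 8.59 in WT. The PRR KO arrays were close to pool 1 and above pool 2, so the groups overlapped. The difference was 0.21 ± 0.20 (log2, SE), with an adjusted p of 0.818 in limma's test. The log2 ratio of Cy5 to Cy3 was 0.46 on the array shared by knockout and pool 2, against −0.18 on the pool 2 self array. The difference between these ratios was 0.64 (1.56-fold). It includes the same Cy5 signal of pool 2 on the self array. With all channels that held signal normalized together, the WT pools differed by −0.47 in Cy5 (pool 2 minus pool 1) and by 0.06 in Cy3 on the same self arrays, while pool 2 in Cy3 of PRR KO replicate 2 differed from pool 1 by −0.21. The low pool 2 value was thus not the same in every channel.

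Subunit a forms the path by which protons cross the membrane and directs the pump to its compartment, and 3 of its isoforms were members. Atp6v0a1 encodes an isoform abundant in neurons. It was at 7.72 and 7.59 in PRR KO, against 7.69 and 7.71 in WT, a difference of −0.05 ± 0.12 with a 95% interval of −0.35 to 0.25. Atp6v0a2 encodes an isoform of the Golgi and endosomes. It was at 7.17 and 7.11 in PRR KO, against 7.05 and 7.26 in WT, a difference of −0.01 ± 0.13 with an interval of −0.35 to 0.33. For both isoforms the groups overlapped, and changes smaller than the intervals could not be seen. The second Atp6v0a2 probe differed by −0.07 between the group means. The second Atp6v0a1 probe was well above background in Cy5 on PRR KO replicate 1 alone and was not tested.

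Atp6v0a4 encodes the isoform of the plasma membrane pump in acid-secreting kidney cells, and inherited loss of the human gene causes distal renal tubular acidosis. It was measured by a pair of probes. The brighter one, used for the test, was at 7.99 and 8.24 in PRR KO, against 7.65 (pool 1) and 9.05 (pool 2) in WT. The PRR KO arrays lay between the WT pools, above pool 1 by 0.47 and below pool 2 by 0.94 on the log2 scale. The difference between the group means was −0.24 ± 0.48, with an adjusted p of 0.899 (limma) and a 95% interval of −1.48 to 1.01. The other probe was at 6.82 and 6.75 in PRR KO, against 6.80 and 8.15 in WT. It placed the PRR KO arrays level with pool 1 (a difference of −0.02) and below pool 2 (a difference of −1.37). Against pool 2 both probes had the same sign, also on the shared array. There the ratio of knockout to pool 2, less that on the pool 2 self array, came to 0.564 by the brighter probe and 0.417 by the other. Against pool 1 they differed in sign.

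The ring of V0 is built from proteolipid subunits, c from Atp6v0c and the related c″ from Atp6v0b. Atp6v0c was at 10.57 and 10.66 in PRR KO, against 10.48 and 10.40 in WT, and was the member with both PRR KO arrays above both WT arrays. The difference was small, 0.18 ± 0.11 (1.13-fold), with an adjusted p of 0.802 in limma's test. Atp6v0b was at 9.90 and 10.12 in PRR KO, against 9.91 and 10.50 in WT. The PRR KO mean was close to pool 1 (a difference of 0.10) and below pool 2 by 0.49, and the difference from both pools together was −0.20 ± 0.23 (adjusted p = 0.840).

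Subunit d connects the ring to the stalk, and subunit e is a small hydrophobic subunit. Atp6v0d1, the widely expressed isoform, was at 9.70 and 9.72 in PRR KO, against 9.57 and 9.75 in WT. Atp6v0e was at 11.56 and 11.80 in PRR KO, against 11.40 and 11.65 in WT. In both genes the groups overlapped, with differences of 0.05 ± 0.12 for Atp6v0d1 and 0.16 ± 0.16 for Atp6v0e. Atp6v0d2, an isoform known from osteoclasts and kidney, was at 6.51 and 6.80 in PRR KO, against 6.78 and 6.69 in WT. Its raw Cy5 intensity was 94 and 82.5 in PRR KO, against 80 and 73 in WT, with local background of 48 to 53, so its signal was close to background. In Cy3 it was well above background on 1 of the 3 arrays with Cy3 signal.

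Of the 10 genes, 0 passed the adjusted threshold, 1 lay below both WT arrays in both PRR KO arrays (Atp6ap2), 1 lay above (Atp6v0c) and 8 overlapped. Over all genes with a value on all 4 arrays, 17.1% lay below, 22.5% above and 39.6% in either, so the members did not separate more often than genes at large. The median difference over the 10 members was −0.03 on the log2 scale, against 0.02 over all genes tested. Against pool 1 the members' median was 0.09 and against pool 2 it was −0.05. The members other than Atp6ap2 therefore showed no shared direction, and their sign turned with the pool for Atp6ap1, Atp6v0a2, Atp6v0a4, Atp6v0b and Atp6v0d1.

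**Figure D2:**
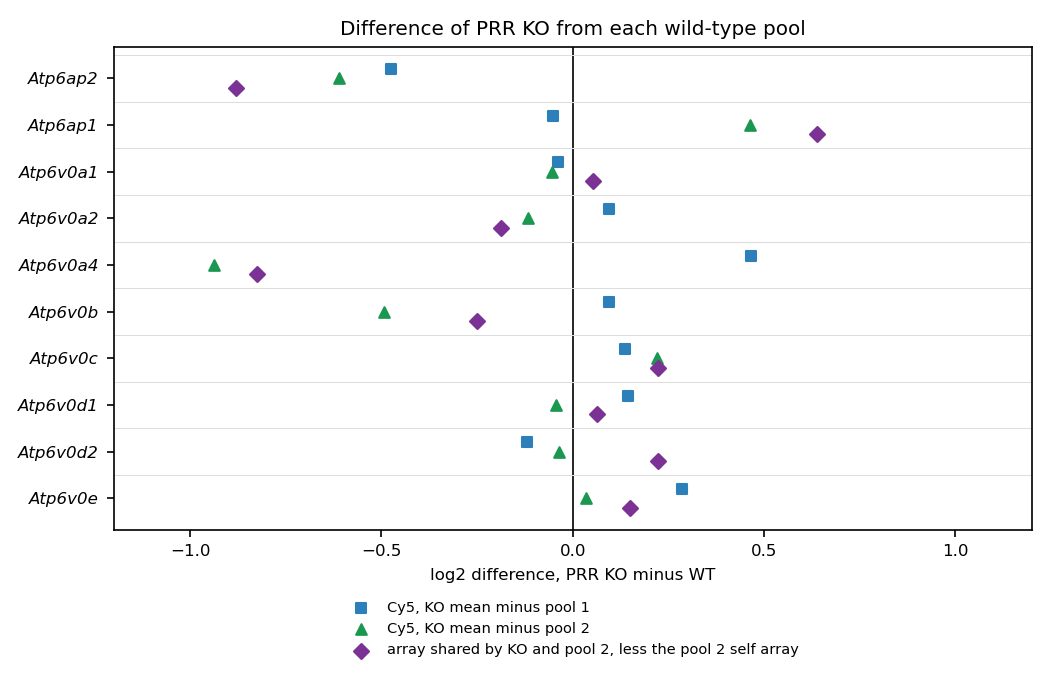
Log2 difference of PRR KO from WT (x axis) for each gene: the PRR KO mean minus pool 1 (squares) and minus pool 2 (triangles) in Cy5, and the difference on the array shared by knockout and pool 2, less the ratio on the pool 2 self array (diamonds, for Atp6v0d2 over Cy3 close to background). Atp6ap2 lies left of 0 by all 3 measures, while Atp6v0a4 lies at 0.47 against pool 1 and at −0.94 against pool 2.

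The log ratios of Cy5 to Cy3 gave a second comparison, of the PRR KO arrays with the WT self arrays. It uses Cy3 on every array. On PRR KO replicate 1, whose Cy3 was empty, the ratio does not measure the gene, and after loess all 10 members lay between −0.14 and 0.05 there. Atp6ap2 had log2 ratios of 0.02 and −0.63 on the PRR KO arrays, against 0.12 and 0.25 on the WT self arrays. The difference between the group means, which includes the uninformative 0.02, was −0.49 ± 0.24 with an adjusted p of 0.914 in limma's test. No member passed, nor did any of 15929 genes (0%), of which 87 (0.546%) had an unadjusted p below 0.05.

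The calls depended on single arrays. Without WT replicate 1, PRR KO was tested against pool 2 alone, and 4 members passed the adjusted threshold in limma's test: Atp6ap2 (−0.61, adjusted p = 0.0348), Atp6ap1 (0.46, adjusted p = 0.0179), Atp6v0a4 (−0.94, adjusted p = 0.00456) and Atp6v0b (−0.49, adjusted p = 0.0313). In that fit 4295 genes passed, or 26.8% of all (16% higher and 10.8% lower), and the lone WT array was assumed to vary as the PRR KO arrays did. Without WT replicate 2, PRR KO was tested against pool 1 alone, the Atp6ap2 difference was −0.47 with an adjusted p of 0.293, and no member passed. In the log-ratio comparison without PRR KO replicate 1, 5 members passed: Atp6ap2 (−0.81), Atp6ap1 (0.41), Atp6v0a4 (−0.72), Atp6v0b (−0.37) and Atp6v0d2 (0.38). The Atp6v0d2 value is a ratio to Cy3 signal that was not well above background on PRR KO replicate 2 or WT replicate 2, so it is no measure of that gene. The spread in this fit came from the WT self arrays alone, each with the same pool in both dyes. It therefore measures differences between dyes and arrays, and holds no spread between knockout samples. In that fit 33.4% of all genes passed, again with 1 array on one side.

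The WT pools differed in Atp6v0a4 more than in any other member, in both dyes. With the 7 channels that held signal normalized together, the brighter probe was at 7.60 and 7.82 in PRR KO (Cy5). It was at 8.54 (Cy5), 8.64 (Cy3 of the self array) and 8.61 (Cy3 of PRR KO replicate 2) in pool 2, and at 7.33 (Cy5) and 7.60 (Cy3) in pool 1. The 3 channels of pool 2, from 2 arrays, lay together and above the other channels. The other probe was well above background in Cy3 in both pool 2 channels and not in the pool 1 channel. By the brighter probe, pool 2 exceeded pool 1 by 1.21 in Cy5 and 1.03 in Cy3 on the log2 scale on the self arrays. Of the 9 members detected in pool 1 and pool 2 in both dyes, Atp6v0a4 was the only one past 1.5-fold in both, where 4.63% of 11152 genes were higher in pool 2 by this measure and 4.29% lower. Atp6v0b came next, higher in pool 2 by 0.56 in Cy5 and 0.78 in Cy3, which was just short of 1.5-fold in Cy5 on this scale and at about that fold (0.59 on the log2 scale) with Cy5 normalized alone. Atp6ap2 differed little between the pools, by 0.11 in Cy5 and −0.03 in Cy3. These values come from 1 sample of each pool and carry no test.

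Markers of other nephron segments moved with the same pool. Of 10 listed proximal tubule genes 8 were on the array, and all 8 were higher in pool 2 than in pool 1 in Cy5, with a median of 2.71 (log2). Their summed level was 4088 and 2573 on the PRR KO arrays, against 5803 in pool 1 and 45633 in pool 2. Loop of Henle and distal tubule genes, a list chosen after the data were seen, were higher in pool 2 in 7 of 7 tested, with a median of 1.12. Their summed level was 2372 and 2150 in PRR KO, against 2802 in pool 1 and 9103 in pool 2. The part of these cells in the Atp6v0a4 and Atp6v0b values was not tested. Both sums were lower in PRR KO than in each WT pool, pool 1 included, and so was Atp6ap2. Their part in the Atp6ap2 difference was not tested.

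Between the WT pools, most markers of the cells that carry the plasma membrane pump ran the other way: 9 of 11 tested intercalated cell genes were lower in pool 2 than in pool 1 in Cy5. The exceptions were the pump gene Atp6v1b1 (1.19 in Cy5 and 0.84 in Cy3, pool 2 minus pool 1) and Foxi1 (0.05 and −0.11). This was not particular to intercalated cells. Only 3 of 11 principal cell genes, 2 of 12 ureteric bud genes, 1 of 7 stromal genes and 1 of 5 endothelial genes were higher in pool 2. Over all genes 7238 of 16036 were higher in pool 2. The 11 intercalated cell genes summed to 8377 and 9427 in PRR KO, against 7090 in pool 1 and 5267 in pool 2. The ammonia transporter gene Rhcg alone made 5281 and 6433 of this in PRR KO, against 3786 and 2648 in WT. Without Rhcg, a sum added after the data were seen, it was 3096 and 2994 in PRR KO, against 3305 in pool 1 and 2619 in pool 2. The median difference of PRR KO over the 11 intercalated cell genes was −0.03 from pool 1 and 0.37 from pool 2. Principal cell genes, which mark the other main cell of the duct, summed to 23263 and 25769 in PRR KO, against 19159 and 16471 in WT. Most of this sum came from Aqp2, Aqp3 and Fxyd4. In both PRR KO arrays 6 of these 11 genes lay above both WT arrays, 3 below and 2 overlapped. Over all genes 22.5% lay above and 17.1% below. Those below were Kcnj1 (−1.14), Avpr2 (−0.21) and Aqp4 (−0.12), as log2 differences of PRR KO from WT. The Kcnj1 value came mostly from pool 2, at −0.18 from pool 1 and −2.10 from pool 2. Pool 2 exceeded pool 1 in this gene by 1.92 in Cy5 and 1.77 in Cy3. Avpr2 was at −0.27 from pool 1 and −0.16 from pool 2, and Aqp4 at −0.10 and −0.13. The 12 ureteric bud genes, all well above background on every array, summed to 42784 and 44595 in PRR KO, against 43351 and 38246 in WT. Most of this sum came from the keratin genes Krt18 (log2 14.57 and 14.68 in PRR KO) and Krt8 (13.12 and 13.10). Ret was far dimmer, at 6.74 and 6.65 in PRR KO, against 7.02 and 6.96 in WT. In both PRR KO arrays 3 of the 12 lay above both WT arrays, 2 below (Ret and Wnt11) and 7 overlapped, against 22.5% above and 17.1% below over all genes. Of the macrophage and osteoclast list, set beside Atp6v0d2, 7 of 14 genes were tested. They summed to 837 and 773 in PRR KO, against 891 and 832 in WT. Of the 7, 6 and 5 were well above background on the PRR KO arrays, against 7 and 7 on the WT arrays. Some thus entered the comparison through WT alone, which favours genes lower in PRR KO, and the next count carries that bias. In both PRR KO arrays 4 of the 7 lay below both WT arrays and 1 above, and 2 overlapped. Over all genes 17.1% lay below and 22.5% above. The osteoclast genes Ctsk, Ocstamp and Dcstamp missed the detection filter in both genotypes. Acp5, of the same list, was tested. It was at 6.52 and 6.17 in PRR KO, against 6.64 and 6.78 in WT, a difference of −0.36 ± 0.16. Acp5 was the dimmest of the 7 on both PRR KO arrays, so the same limit of the filter may apply to this difference.

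**Figure D3:**
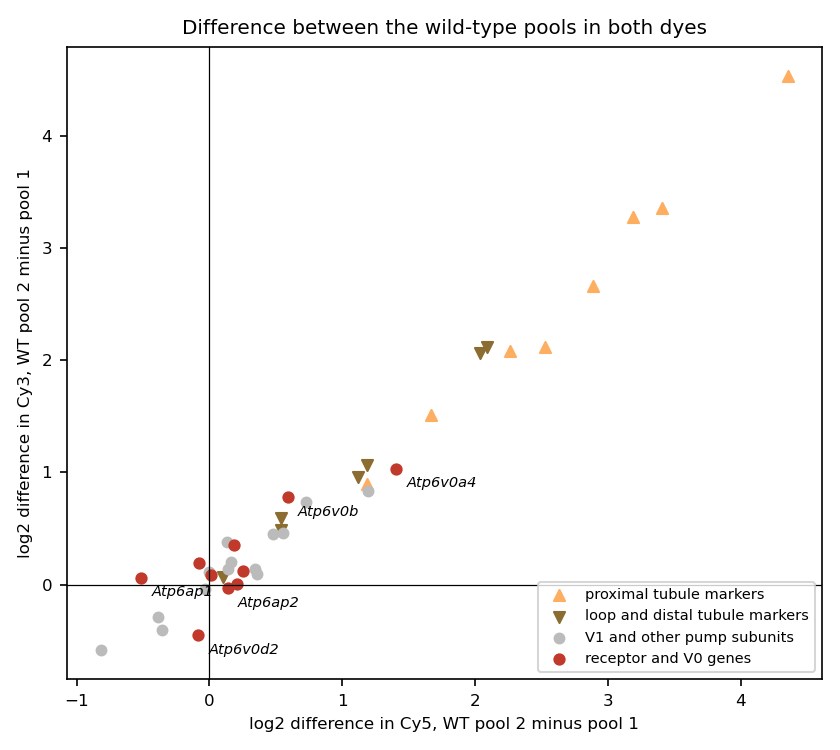
Log2 difference of WT pool 2 minus pool 1 in Cy5 (x axis) and in Cy3 (y axis) on the self arrays, for the receptor and V0 genes, the other pump subunits and markers of proximal and of loop and distal tubule. Cy5 values are from the normalization of Cy5 alone and Cy3 values from that of the 7 channels. Atp6v0a4, at 1.41 and 1.03, lies at the upper end of the members, near the lower tubule markers, and Atp6ap2 close to 0 in both dyes.

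The rest of the pump did not pass the test either. Of 15 listed V1 and other pump genes 14 were tested, 0 passed the adjusted threshold and 0 had an unadjusted p below 0.05. In 5 of them both PRR KO arrays lay below both WT arrays, in 0 above, and 9 overlapped, where over all genes 17.1% lay below and 22.5% above. The median difference over the 14 genes was −0.06, against 0.02 over all genes tested. Atp6v1b1 encodes the B subunit isoform of acid-secreting cells and, with Atp6v0a4, is mutated in human distal renal tubular acidosis. It was at 6.96 and 6.96 in PRR KO, against 6.99 in pool 1 and 8.18 in pool 2, a difference of −0.63 ± 0.40. The stalk subunit gene Atp6v1g1 was at 11.55 and 11.48 in PRR KO, against 11.56 in pool 1 and 12.30 in pool 2, a difference of −0.41 ± 0.26. The PRR KO mean of these genes differed from pool 1 by −0.03 (Atp6v1b1) and −0.05 (Atp6v1g1) and from pool 2 by −1.22 and −0.78. A second Atp6v1g1 probe differed by 0.02 from pool 1 and by −1.24 from pool 2.

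The catalytic subunit gene Atp6v1a was at 8.27 and 8.28 in PRR KO, against 8.29 and 8.77 in WT. Atp6v1b2, the widely expressed B isoform, was at 6.59 and 6.65 in PRR KO, against 6.65 and 7.01 in WT. Their differences were −0.26 ± 0.19 and −0.21 ± 0.16, small against pool 1 (−0.02 and −0.03) and larger against pool 2 (−0.50 and −0.39). The probes of Atp6v1a disagreed on the pools. The dimmer one was at 8.12 and 8.11 in PRR KO, against 8.29 and 8.29 in WT, differences of −0.18 from pool 1 and −0.17 from pool 2. Tcirg1, which encodes the a3 isoform of lysosomes and osteoclasts, was at 7.25 and 7.47 in PRR KO, against 7.61 and 7.22 in WT. Atp6v0e2, the second e isoform, was at 8.74 and 8.64 in PRR KO, against 8.67 and 8.83 in WT. Neither separated the genotypes by these probes. A dimmer Atp6v0e2 probe was at 7.20 and 7.11 in PRR KO, against 7.26 and 7.28 in WT.

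Among assembly factors and regulators 6 of 11 listed genes were tested, 0 passed and all 6 overlapped, with a median of −0.06. Tmem9, whose product is reported to bind the pump, was at 10.34 and 10.26 in PRR KO, against 10.33 and 10.48 in WT, and a dimmer probe of it was at 8.63 and 8.67 in PRR KO, against 8.83 and 8.92 in WT. Ncoa7, whose product binds the pump in kidney cells, was at 8.42 and 8.52 in PRR KO, against 8.15 in pool 1 and 9.41 in pool 2. Like Atp6v0a4 by its brighter probe, Ncoa7 had both PRR KO arrays between the WT pools.

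The genes nearest to Atp6ap2 in pattern were sought among 8275 genes well above background in all 7 channels, by the root mean square distance between log2 levels, each centred on its own mean. A gene with several such probes was taken by its nearest, which need not be the brightest one used in the test. Eif3e, a subunit of a translation initiation factor, was nearest at 0.057, followed by the histone gene H2bc14 at 0.064 and the membrane protein gene Tenm4 at 0.064. All 3 were lower on the PRR KO arrays in Cy5, with log2 differences of −0.43, −0.44 and −0.42 in the order given. This follows from their choice, since the distance was taken over these same channels. For Eif3e this was not its brightest probe. When each gene was taken by its brightest probe, a choice added after the data were seen, Eif3e ranked 2832 of 8227, and H2bc14 and Tenm4 ranked 1 and 2. The distance to a gene with no change in any channel would be 0.206 and the median over all candidates was 0.233. No member of the pump was among the near genes: Atp6v0e2 came first of the pump genes at rank 900 by its dimmer probe (1078 by its brightest), and Atp6v0a2 first of the V0 members at rank 1753 (1464 by brightest probes).

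**Figure D4:**
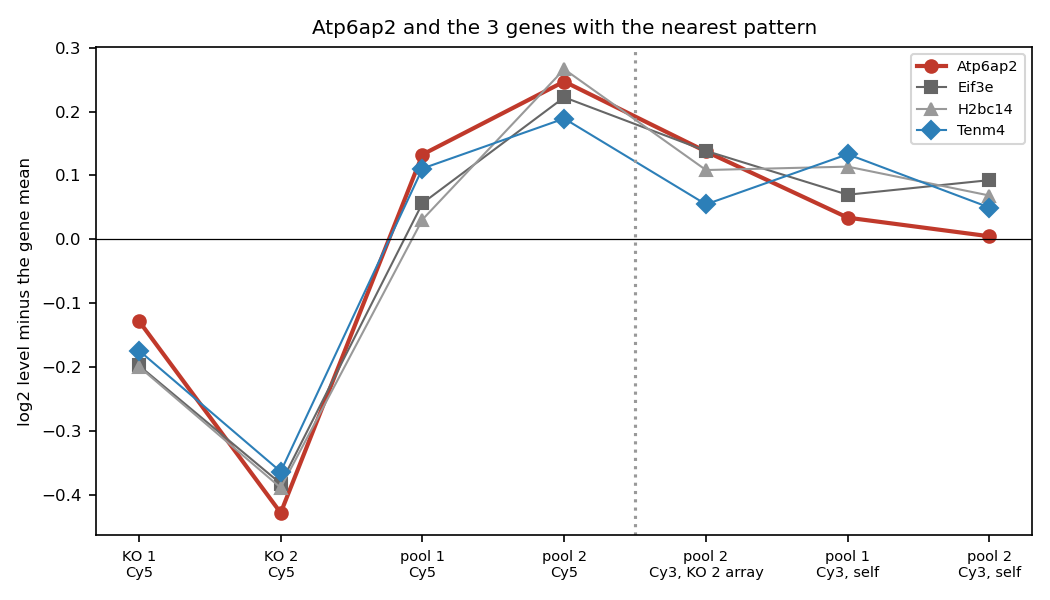
Log2 level minus the gene's own mean (y axis) in the 7 channels with signal (x axis, Cy5 of the 4 arrays left of the dotted line and Cy3 right of it), for Atp6ap2 and the 3 genes with the smallest root mean square distance from it, each by its nearest probe. In all 4 genes both PRR KO channels lie below the 5 WT channels, which for the 3 chosen genes follows from their choice by likeness to Atp6ap2.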

How the data were processed

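Per the file headers, Agilent Feature Extraction 10.7.3.1 read the spots of the Whole Mouse Genome arrays. Each deposited file holds median intensity and local background in Cy5 and Cy3, processed signals, a log10 ratio of Cy5 over Cy3 and the software's p-value for it, per the file headers. The values of the authors' series table equalled that log10 ratio at 45018 of 45018 spots of every array.

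Intensities were background corrected by normexp (offset 50), control spots and a dark patch on WT replicate 1 (377 spots, holding no member's probe) were left out, and log2 Cy5 was quantile normalized. A probe was kept if the software's flag placed its Cy5 signal well above background on 2 arrays of the same genotype, and the brightest stood for each gene. limma 3.58.1 in R 4.3.3 tested PRR KO minus WT, two-sided, with Benjamini-Hochberg adjustment over all genes and a threshold of 0.05. Log ratios were loess normalized with control spots at weight 0. Accessions gave 22944 probes a symbol (16355 symbols) through a RefSeq table of GRCm38.p6. Scripts were tested on simulated data. The series' own text describes 2 pooled samples of each genotype, but nothing used here gives their animals, so p-values measure the spread between these samples, which may be technical. With 2 arrays in each group, their number limits the precision. PRR KO replicate numbers are in accession order and pair nothing.

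Named genes were all members with every probe, the 4 pump genes and 2 assembly genes with the smallest unadjusted p, Tcirg1, Atp6v0e2, and the 3 genes nearest to Atp6ap2. Members and lists were chosen with earlier results of these data known. Beside the marker lists in the report, endothelial genes (5 of 7 tested) had a median difference of −0.08 and stromal genes (7 of 8 tested) of 0.06. Alternatives changed the offset, signal, scaling, filter, patch, probe rule, block and arrays.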

Additional observations from a re-analysis of the deposited data

How the results depend on the processing

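The Atp6ap2 Cy5 difference was negative under every alternative tried, and its adjusted p stayed above the threshold except without WT replicate 1. Leaving out each array in turn gave −0.72 to −0.36 for Atp6ap2, 0 to 4 members called, 0 to 4295 genes called and 0 to 5 genes called of the V1 and other pump list, with every upper count obtained without WT replicate 1. The members' median difference, −0.03, was −0.036 with the software's processed signal, −0.0069 with 75th percentile scaling and −0.043 with the mean over probes. On leaving out arrays it was −0.049 to 0.094. Single members also moved with 75th percentile scaling, to 0.38 for Atp6ap1, 0.39 for Atp6v0c, 0.25 for Atp6v0d1 and 0.36 for Atp6v0e. Atp6v0d2 was at −0.42 there, Atp6v0a4 at −0.09 and Atp6v0b at −0.0024. Under that scaling no member turned its sign and 0 were called. Leaving out arrays turned the sign of single members, with ranges of −0.051 to 0.46 for Atp6ap1, −0.11 to 0.015 for Atp6v0a1, −0.12 to 0.093 for Atp6v0a2, −0.94 to 0.47 for Atp6v0a4, −0.49 to 0.095 for Atp6v0b, −0.044 to 0.14 for Atp6v0d1 and −0.22 to 0.067 for Atp6v0d2. In the log-ratio comparison Atp6ap2 was 0.29 with the deposited log ratio and −0.014 with median centring, where the median of all genes was 0.88 and 0.44, so that relative to it the gene was at −0.59 and −0.45. Leaving out arrays gave −0.81 to −0.16 there, with 0 to 5 members called, the upper count without PRR KO replicate 1. The median shared-array difference over members, 0.06, was 0.026 with median centring and 0.11 with the deposited log ratio. The cause of these shifts was not tested.

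With a replicate block Atp6ap2 was at −0.54 with an adjusted p of 0.876 (limma) in Cy5 and at −0.49 in the log-ratio comparison, and 0 members were called. The replicate numbers pair nothing in the labels, and deviations of same-numbered arrays correlated at 0.04 over genes.

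Signal close to background limits Atp6v0d2 and the second probe of Atp6v0a1.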

Other observations

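Not all subunits of the acid-secreting pump followed Atp6v0a4 between the WT pools. Atp6v1c2 and Atp6v1g3, named here after their values were seen, encode C and G subunit isoforms of the kidney. Atp6v1c2 was at 8.91 and 8.82 in PRR KO, against 8.94 in pool 1 and 8.13 in pool 2. Atp6v1g3 was at 8.86 and 9.08 in PRR KO, against 8.95 in pool 1 and 8.59 in pool 2. Both were lower in pool 2 than in pool 1 in both dyes, by −0.82 in Cy5 and −0.59 in Cy3 for Atp6v1c2 and by −0.36 and −0.41 for Atp6v1g3, where Atp6v0a4 and Atp6v1b1 were higher. These are values of 1 sample of each pool, with no test.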
